A study of Mus musculus with 6 samples.

Results

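The genes followed here were NR4A receptors, Krüppel-like factors and other early response genes outside the EGR and AP-1 families: *Nr4a1*, *Nr4a2*, *Nr4a3*, *Klf2*, *Klf4*, *Klf6*, *Dusp1*, *Btg2*, *Ier2* and *Ier3*. They were taken by name from a table of transcripts whose estimated read counts were summed for each gene. They are 10 of 18089 genes. The rule used their names, not their values, but the list was chosen with earlier results of these data known. RNA came from ischemic muscles, named as gastrocnemius in the study's methods, of C57BL/6 mice killed 7 days after hindlimb ischemia (HLI), in which the femoral artery was ligated and excised. One group was 3 wild-type (WT) mice and the other was 3 *Gpr174-/Y* mice, labelled GPR174-KO, which lack the X-linked receptor gene *Gpr174* in every cell type. Per the study's methods all were males of 8 to 10 weeks, and its results section calls the WT mice littermate controls. Both groups had undergone HLI, and no muscle without ischemia was among the samples analysed here, so the values compare genotypes at a single time and do not show induction by ischemia.

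Early response genes are switched on within minutes of a stimulus from transcription factors that are already present, such as CREB, SRF and MEF2, and their messages usually decay quickly. The NR4A genes encode orphan nuclear receptors that act without a known natural ligand and, in muscle, are tied to adrenergic signals and to glucose and lipid use. KLF2 and KLF4 are transcription factors kept on by laminar flow in endothelium, KLF6 is a relative expressed in many injured tissues, DUSP1 is a nuclear phosphatase that turns off MAP kinases, BTG2 restrains proliferation and promotes mRNA decay, and IER2 and IER3 are small early response proteins.

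The stretches of promoter that hold the motifs searched for are shown because CREB, MEF2 and NF-kB are among the factors known to act on these genes. Of the 10 genes, 9 matched a RefSeq window on GRCm38.p6 that runs from 250 bases before to 50 bases after the start of the gene; *Ier2* had no entry. Capitals mark a cAMP response element (TGACGTCA) or its shorter core (TGACG or, on the other strand, CGTCA), a MEF2 motif or an NF-kB motif, and each line reads 5′ to 3′ on the strand of the gene.
Nr4a1 (chr15:101266603-101266820, plus strand): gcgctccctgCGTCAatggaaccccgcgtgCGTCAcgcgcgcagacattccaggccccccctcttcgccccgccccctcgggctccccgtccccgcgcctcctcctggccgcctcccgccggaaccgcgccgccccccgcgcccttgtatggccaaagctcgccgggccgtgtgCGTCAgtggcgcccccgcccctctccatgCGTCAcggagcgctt
Nr4a2 (chr2:57124100-57124213, minus strand): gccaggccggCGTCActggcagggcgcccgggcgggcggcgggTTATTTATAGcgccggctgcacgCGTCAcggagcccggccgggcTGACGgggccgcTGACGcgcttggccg
Nr4a3 (chr4:48045064-48045172, plus strand): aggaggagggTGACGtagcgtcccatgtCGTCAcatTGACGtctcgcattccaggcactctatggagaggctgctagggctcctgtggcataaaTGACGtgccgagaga
Klf2 (chr8:72318812-72318963, plus strand): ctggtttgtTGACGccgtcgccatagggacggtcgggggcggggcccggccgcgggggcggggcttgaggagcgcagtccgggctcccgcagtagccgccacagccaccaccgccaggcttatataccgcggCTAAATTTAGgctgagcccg
Klf4 (chr4:55532693-55532717, minus strand): gcctggctggCGTCAcggcctggcc
Dusp1 (chr17:26508598-26508673, minus strand): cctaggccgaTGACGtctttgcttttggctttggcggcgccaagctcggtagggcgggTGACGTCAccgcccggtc
Btg2 (chr1:134079304-134079331, minus strand): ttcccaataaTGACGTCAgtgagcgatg
Ier3 (chr17:35821611-35821640, plus strand): tgcgaagggcGGAGTTCCCCccggcccggc

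Each motif was searched on both strands. The core lay in 7 of the 9 windows (*Nr4a1*, *Nr4a2*, *Nr4a3*, *Klf2*, *Klf4*, *Dusp1* and *Btg2*), against 20.8% of all 32851 RefSeq windows of the same length. Each of the 3 NR4A windows held 4 of them. The full cAMP response element, whose letters hold the core on both strands and were counted there too, was found for *Dusp1* and *Btg2* and in 1.79% of all windows. A MEF2 motif was present for *Nr4a2* and *Klf2* (3.19% of all windows). An NF-kB motif was present for *Ier3* and, across the start itself and so not shown above, for *Nr4a1* (4.51% of all windows). The GC box (GGGCGG) was in all 9 windows and in 35.7% of all windows, with some copies overlapping each other. CACCC was in 4 of the 9 (57.5% of all windows) and TATAAA in that of *Nr4a2* alone (13.6%). That TATAAA was on the other strand and lay within the letters of the MEF2 motif. The CArG box, to which SRF binds, and the NR4A element AAAGGTCA were in none (1.63% and 1.51%). The window of *Klf6* held none of the motifs marked in capitals. A match of letters does not show that a factor was bound in these muscles.

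Total estimated counts were 18417077 to 18695013 in the WT libraries and 19173036 to 19394469 in the *Gpr174-/Y* libraries. Values below are CPM after TMM scaling, that is counts divided by the size of the library, corrected for its composition, and log2 fold changes are *Gpr174-/Y* over WT from edgeR's quasi-likelihood test with Benjamini-Hochberg adjustment over 14395 genes. The counts of *Gpr174* itself, for replicates 1, 2 and 3 in this order, were 8, 2 and 5 among WT libraries, against 1, 0 and 0 where it was disrupted (log2 fold change -3.76, standard error 0.99, adjusted p = 0.0176, from the fit without a filter on low counts). The labelled tissue was borne out by the mature fibre genes, whose summed CPM was 157321 to 222686 in WT and 68893 to 78068 in *Gpr174-/Y* muscles. Replicate 2 lay between replicates 1 and 3 for 77.1% of 9972 genes with a mean of at least 10 CPM in WT and for 68.2% in *Gpr174-/Y* muscles, where 33.3% is given by chance; this held for 5 of the 10 early genes in WT and for 9 of the 10 in *Gpr174-/Y* muscles, and p-values measure only the spread between these samples.

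In the *Gpr174-/Y* muscles, *Nr4a1*, *Klf2*, *Klf4*, *Dusp1* and *Btg2* were lower than in WT and *Ier3* was higher. Thus 6 of the 10 genes passed an adjusted p of 0.05, 5 lower and 1 higher, where 54.6% of all genes tested passed, 27.6% lower and 27.0% higher. All 10 had passed the filter on low counts. *Nr4a1* and *Ier3* were also past an absolute log2 fold change of 1, the study's second threshold, which 8.28% of all genes passed together with the first. In CPM after TMM scaling the groups did not overlap for 8 of the 10 genes, all but *Nr4a3* and *Ier2*, against 65.6% of all genes. In TPM, by contrast, the groups overlapped for *Nr4a1* and *Btg2* and did not for *Ier2*. The median log2 fold change was -0.23 over the 10 genes and 0.0037 over all genes tested. The direction of the list as a whole depended on the scaling: on total counts, which shifted the median of all genes by 0.27 toward *Gpr174-/Y*, 8 of the 10 passed, 4 lower (*Nr4a1*, *Klf2*, *Klf4* and *Dusp1*) and 4 higher (*Ier3*, *Klf6*, *Ier2* and *Nr4a2*), the median of the 10 was 0.04, and 2010 of all genes were lower and 7303 higher in place of 3972 and 3891.

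**Figure D1:**
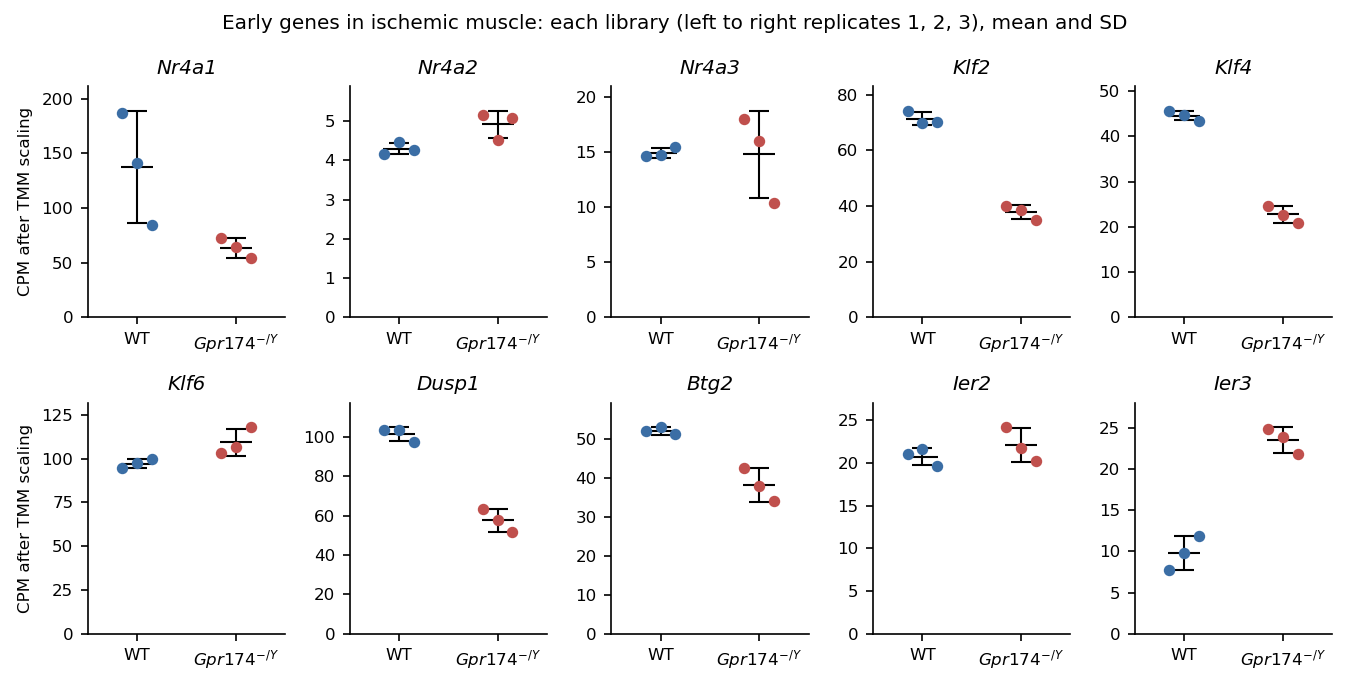
Level of each early gene in each library, in CPM after TMM scaling (vertical axes from 0), with WT in blue, Gpr174-/Y in red, and a line and bar for the mean and SD of 3 libraries. Klf2, Klf4, Dusp1 and Btg2 form 2 tight groups, with Gpr174-/Y below WT, while the WT libraries of Nr4a1 spread from 84.6 to 187.

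Levels scaled for transcript length as well (TPM) allow the genes to be set against each other within a genotype. In WT muscles the order of mean TPM was *Nr4a1* (92.2 ± 30.7, SD, n = 3), *Dusp1* (91.4 ± 2.12), *Klf2* (69.0 ± 2.16), *Klf6* (39.9 ± 3.11), *Btg2* (29.3 ± 1.25), *Klf4* (25.4 ± 0.656), *Ier2* (24.1 ± 0.813), *Ier3* (16.2 ± 4.26), *Nr4a3* (4.61 ± 0.351) and *Nr4a2* (2.37 ± 0.142). *Nr4a1* overlapped *Dusp1* and *Klf4* overlapped *Ier2*, and the other neighbours in this order did not overlap. In *Gpr174-/Y* muscles *Dusp1* (68.0 ± 4.80 TPM), *Klf6* (58.9 ± 6.10), *Nr4a1* (56.4 ± 6.09), *Ier3* (50.6 ± 1.66) and *Klf2* (47.9 ± 1.77) followed each other with every neighbour overlapping. Below them came *Ier2* (33.5 ± 1.90), *Btg2* (28.1 ± 2.24), *Klf4* (17.0 ± 0.813), *Nr4a3* (6.01 ± 1.46) and *Nr4a2* (3.43 ± 0.225), none overlapping the next. *Ier3* thus stood at rank 8 of 10 in WT and at rank 4 in *Gpr174-/Y* muscles.

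Among the NR4A receptors, only *Nr4a1* (Nur77) differed between genotypes past the threshold, and the differences between its response and those of the other NR4A genes were not tested. *Nr4a1* stood at 187, 141 and 84.6 CPM in WT muscles, by replicate number as in all that follows, and at 72.1, 64.5 and 53.8 CPM in *Gpr174-/Y* muscles. In these CPM every *Gpr174-/Y* library lay below every WT library. In TPM the groups overlapped, at 60.2 in WT replicate 3 and 62.0 in *Gpr174-/Y* replicate 1. The WT libraries differed among themselves by 2.21-fold in CPM, more than those of any other gene of the list. *Nr4a1* was 2.17-fold lower in *Gpr174-/Y* muscles (137.6 ± 51.3 against 63.5 ± 9.19 CPM, SD, n = 3 each; log2 fold change -1.12, standard error 0.27, adjusted p = 0.0132 by edgeR's quasi-likelihood test). The call was lost without *Gpr174-/Y* replicate 3 (log2 fold change -1.01, adjusted p = 0.0556), and without WT replicate 1 the difference was -0.82. *Nr4a2* (Nurr1) was low, at 4.17, 4.46 and 4.27 CPM in WT and 5.16, 4.52 and 5.07 CPM in *Gpr174-/Y* muscles. The groups just failed to overlap, and the difference did not pass (log2 fold change 0.19, standard error 0.10, adjusted p = 0.183). *Nr4a3* (NOR-1) stood at 14.7, 14.7 and 15.5 CPM in WT and at 18.0, 16.0 and 10.4 CPM in *Gpr174-/Y* muscles, where replicate 3 was below and the others above all WT libraries. Its difference was not detectable against this spread (log2 fold change -0.02, standard error 0.19, adjusted p = 0.951). Its sign turned in 8 of 19 alternative analyses, total counts among them.

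The lower level of *Nr4a1* lay mostly in reads assigned to 1 of its 6 RefSeq transcript models. The curated model NM_010444.2 held 92.0, 88.8 and 41.3 CPM in WT muscles, and 17.0, 11.0 and 9.61 CPM in *Gpr174-/Y* muscles. The other 5 models together held 95.1, 52.4 and 43.3 CPM in WT and 55.1, 53.5 and 44.2 CPM in *Gpr174-/Y* muscles. The first of these quantities was 5.91-fold lower in *Gpr174-/Y* muscles with no overlap, whereas the second overlapped between groups and differed by 1.25-fold. As a share of all *Nr4a1* reads, NM_010444.2 took 49.2%, 62.9% and 48.8% in WT muscles, compared with 23.6%, 17.0% and 17.9% in *Gpr174-/Y* muscles (53.6% ± 8.0 against 19.5% ± 3.6, SD, n = 3 each; p = 0.1 by a 2-sided exact permutation test, the lowest that 3 against 3 libraries can give). XM_006520458.1 kept a near-equal share of 29.5% ± 1.1 and 28.3% ± 2.6. The assignment of reads among the predicted models was unstable: XM_006520459.4 took 20.2%, 1.64% and 0.196% of WT reads, compared with 20.6%, 33.6% and 38.2% of *Gpr174-/Y* reads, and XM_030248339.1 took 0%, 3.39% and 15.8% of WT reads, compared with 16.5%, 15.1% and 13.5% of *Gpr174-/Y* reads. These shares are estimates from reads that can fit several models.

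**Figure D2:**
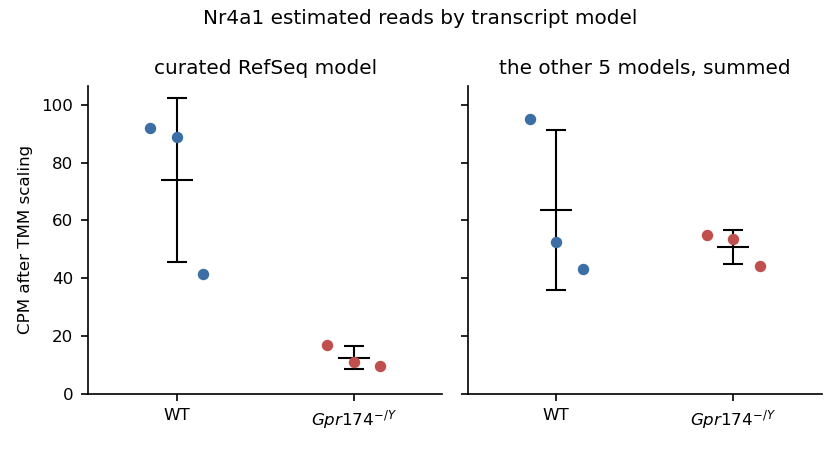
Estimated Nr4a1 reads assigned to the curated RefSeq model (left) and to the other 5 models together (right), in CPM after TMM scaling, for each library, with mean and SD of 3 libraries. The Gpr174-/Y libraries lie at 9.61 to 17.0 CPM on the left, below all WT libraries, and within the WT range on the right.

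Of the other genes, *Nr4a2* and *Nr4a3* also had several models, and 7 genes had 1. For *Nr4a2*, NM_001139509.1 took 66.5%, 62.8% and 53.3% of WT reads, compared with 24.1%, 32.5% and 14.2% of *Gpr174-/Y* reads (p = 0.1 by a 2-sided exact permutation test, again the lowest possible). The gene's total of 67 to 109 counts per library makes the split imprecise, and XM_011239033.3 had no reads in 4 libraries, but 58.9% in replicate 2 and 63.1% in replicate 3 of the *Gpr174-/Y* group, with XM_011239034.3 moving from 0% to 75.9% among the *Gpr174-/Y* replicates. For *Nr4a3*, NM_015743.3 took 93.0%, 93.2% and 85.9% of WT reads, compared with 76.1%, 90.0% and 55.1% of *Gpr174-/Y* reads (p = 0.2, 2-sided exact permutation test), with XM_006537656.4 at 6.77% to 24.9%.

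*Klf2* and *Klf4*, the flow-responsive factors of endothelium, fell by nearly the same amount. *Klf2* stood at 74.2, 69.9 and 70.1 CPM in WT and 40.1, 38.4 and 34.9 CPM in *Gpr174-/Y* muscles. The replicates lay close together, and the groups were far apart: *Klf2* was 1.89-fold lower (log2 fold change -0.92, standard error 0.06, adjusted p = 0.000477). *Klf4* stood at 45.5, 44.8 and 43.4 CPM in WT and at 24.6, 22.7 and 20.9 CPM in *Gpr174-/Y* muscles, and was 1.96-fold lower (log2 fold change -0.97, standard error 0.07, adjusted p = 0.000477). Both kept their direction and their call with each library left out in turn and on total counts, where the log2 fold changes were -0.64 and -0.70. *Klf6* stood at 94.4, 97.4 and 99.9 CPM in WT and 103, 107 and 118 CPM in *Gpr174-/Y* muscles, without overlap. It did not pass the threshold (log2 fold change 0.17, standard error 0.06, adjusted p = 0.0596), but did without WT replicate 3 (0.20, adjusted p = 0.0352) and on total counts (0.44, adjusted p = 0.00407).

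The feedback genes *Dusp1* and *Btg2* were lower too. *Dusp1* stood at 103, 104 and 97.2 CPM in WT and 63.5, 57.8 and 51.5 CPM in *Gpr174-/Y* muscles, a 1.76-fold lower level (log2 fold change -0.82, standard error 0.08, adjusted p = 0.000871). In GENCODE M21 on GRCm38 it overlaps the protein-coding gene *Ergic1* on the opposite strand. Use of strand in counting is not given in the sources used here, and the counts of *Ergic1* were higher in *Gpr174-/Y* libraries (2303 to 2560) than in WT libraries (1336 to 1928), opposite to those of *Dusp1*; without strand, reads of the overlap cannot be told apart. *Btg2* stood at 51.9, 52.9 and 51.1 CPM in WT and 42.5, 37.8 and 34.0 CPM in *Gpr174-/Y* muscles, with no overlap and a 1.36-fold lower mean (log2 fold change -0.45, standard error 0.08, adjusted p = 0.00475). This call depended on the scaling, since on total counts the log2 fold change was -0.18 (adjusted p = 0.0847).

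Of the IER genes, *Ier3* was higher and *Ier2* did not pass. *Ier3*, which acts in cell survival, stood at 7.72, 9.76 and 11.9 CPM in WT and 24.9, 23.9 and 21.9 CPM in *Gpr174-/Y* muscles. Every *Gpr174-/Y* library was above every WT library, and *Ier3* was 2.40-fold higher (log2 fold change 1.26, standard error 0.15, adjusted p = 0.00119). In this fit it was the only early gene of the list that passed as higher. *Ier2* stood at 21.0, 21.6 and 19.6 CPM in WT and at 24.2, 21.8 and 20.3 CPM in *Gpr174-/Y* muscles. These ranges overlap, and no difference passed the threshold (log2 fold change 0.09, standard error 0.08, adjusted p = 0.382), although on total counts it did (0.36, adjusted p = 0.00431), as did that of *Nr4a2* (0.47, adjusted p = 0.00802).

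**Figure D3:**
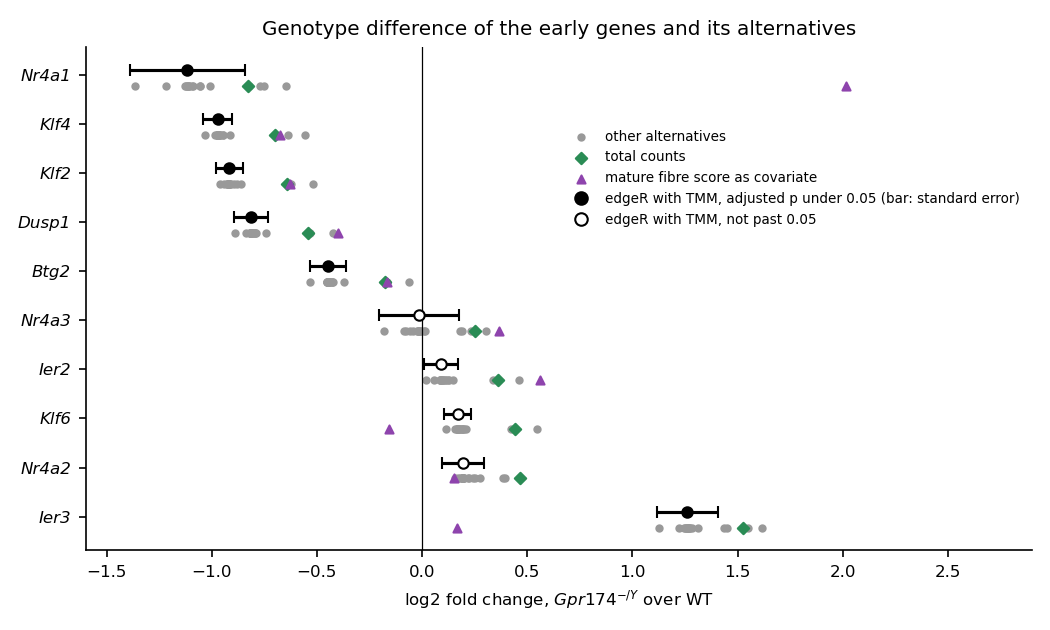
Log2 fold change (Gpr174-/Y over WT) of the early genes, with the standard error as a bar, filled where the adjusted p was under 0.05, and below each the values from the alternative analyses. The values of Klf2, Klf4, Dusp1 and Btg2 all lie left of 0, and Nr4a1 lies left of 0 except for 2.01 with a score of mature fibre genes as a covariate.

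Marker genes of several cell types differed along with the early genes. In bulk tissue, fewer cells of a type and less RNA per cell cannot be told apart. The study itself reported more CD31 staining, its index of capillaries, in *Gpr174-/Y* than in littermate gastrocnemius 7 days after HLI. By flow cytometry it found total macrophages similar between the genotypes on that day. Staining and cell counts are other measures than RNA. Mature fibre genes were lower in 18 of 18 tested (median log2 fold change -1.44), with a 2.60-fold lower summed CPM. Of 12 endothelial genes, 11 were lower (median -0.73) and *Vwf* was higher. Their sum ran from 1192 to 1406 CPM in WT and from 754 to 854 CPM in *Gpr174-/Y* muscles. Of 12 macrophage genes, 11 were higher (median 0.77), and their sum was 1634 to 2558 CPM in WT and 3773 to 3859 CPM in *Gpr174-/Y* muscles. Of the regenerating fibre genes, 7 of 10 were higher and none lower. With edgeR and TMM scaling 0 of 8 T cell genes tested passed (1 at an unadjusted p under 0.05), as did 0 of 10 by DESeq2's Wald test, though on total counts 2 were higher and on log2(TPM + 1) 3 of 6 were, *Cd4* among them (adjusted p = 0.113 with TMM, 0.034 on total counts and 0.0141 on TPM). Their sum overlapped at 17.9 to 30.7 CPM in WT and 28.1 to 31.1 CPM in *Gpr174-/Y* muscles, with *Ctla4* at no more than 3 counts in each library. Of 8 fibroblast genes, 4 were lower and 3 higher, and of 6 smooth muscle genes 3 were lower and 2 higher. Of 3 neutrophil genes tested, 1 was lower and 2 higher, while *Ly6g* and *Camp* had at most 3 counts in every library. The single keratinocyte gene tested, *Krt10*, did not pass, and *Krt14* had at most 3 counts in every library. On total counts 17 of the mature fibre genes were lower, 12 of the macrophage genes were higher, and the fibroblast genes split 3 lower and 4 higher.

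Early genes were then set against these sums, each against a marker list chosen for it, and the sums themselves differed between genotypes. The fold of *Gpr174-/Y* over WT was 0.38 for mature fibre genes, 0.62 for endothelial genes and 1.85 for macrophage genes. A ratio can thus differ between genotypes through its marker sum alone. Per 1000 CPM of mature fibre genes, *Nr4a1* stood at 0.840, 0.722 and 0.538 in WT muscles, compared with 0.923, 0.868 and 0.781 in *Gpr174-/Y* muscles, so that the groups overlapped and the *Gpr174-/Y* mean was the higher. With a score of the mature fibre genes as a covariate in the fit, the log2 fold change of *Nr4a1* was 2.01 (adjusted p = 0.0124 by edgeR's quasi-likelihood test), the reverse of the value without it. No other early gene passed in that fit, where only 394 of all 14395 genes tested did. Of the 10 early genes, 3 had an unadjusted p under 0.05 there. In that fit *Klf2* stood at -0.63 (adjusted p = 0.201), *Klf4* at -0.68 (adjusted p = 0.212), *Dusp1* at -0.40 (adjusted p = 0.518) and *Ier3* at 0.17 (adjusted p = 0.901), all with the direction they had without it. The score separates the genotypes without overlap, so this fit rests on differences within each group. Per 1000 CPM of endothelial genes, *Klf2* stood at 52.8, 53.2 and 58.8 in WT muscles, compared with 47.0, 47.5 and 46.3 in *Gpr174-/Y* muscles, and *Klf4* at 32.4, 34.1 and 36.4 in WT muscles, compared with 28.8, 28.0 and 27.8 in *Gpr174-/Y* muscles. Both remained lower against this sum without overlap, by 1.17-fold and 1.22-fold. The ratios depend on the genes in the sum. In the fit without the score, *Cldn5* (log2 fold change -0.97) and *Kdr* (-0.91) fell about as much as *Klf2* (-0.92) and *Klf4* (-0.97). *Cdh5* (-0.82), the most abundant endothelial gene of the list, fell less, and *Vwf* (0.38) rose. *Dusp1* per 1000 CPM of endothelial genes overlapped (73.5 to 81.5 in WT and 68.4 to 74.3 in *Gpr174-/Y* muscles). On the same scale *Btg2* lay higher in *Gpr174-/Y* muscles (45.1 to 49.8 against 36.9 to 42.8). Per 1000 CPM of macrophage genes, *Ier3* was 4.66 to 4.86 in WT and 5.67 to 6.60 in *Gpr174-/Y* muscles, a 1.30-fold higher mean. *Klf6* on this scale was 39.0 to 57.8 in WT and 27.4 to 30.6 in *Gpr174-/Y* muscles. Single macrophage genes varied too. In the fit without the score, *Itgam* rose by 1.60 on the log2 scale and *Cd68* by 1.22, against 1.26 for *Ier3*. *Lyz2*, the most abundant of that list, rose by 1.00. Which cells made each message was not measured, and the part of cell makeup in these differences was not tested.

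**Figure D4:**
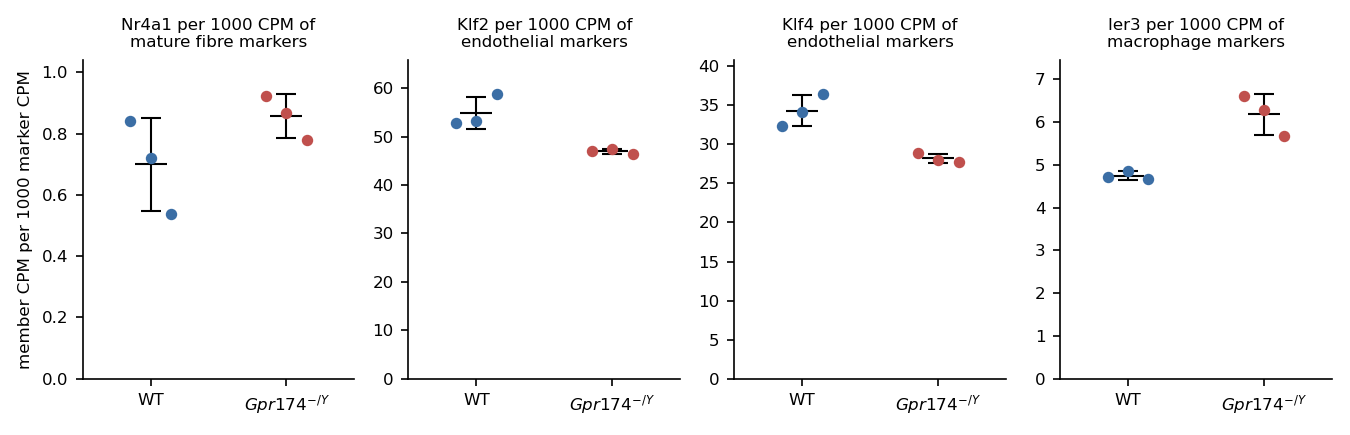
CPM of Nr4a1, Klf2, Klf4 and Ier3 for each 1000 CPM of a summed marker list, in each library, with mean and SD of 3 libraries and axes from 0. Nr4a1 per mature fibre genes overlaps between genotypes, Klf2 and Klf4 per endothelial genes are lower in Gpr174-/Y muscles, and Ier3 per macrophage genes is higher.

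Relatives of these genes did not share a direction, and all genes tested likewise split, 27.6% lower and 27.0% higher. Of the 12 other KLF genes tested, 5 were lower, 4 were higher and 3 did not pass (median log2 fold change 0.13). *Klf9*, a glucocorticoid-responsive factor, was 157 CPM in WT and 71.0 CPM in *Gpr174-/Y* muscles (log2 fold change -1.14, standard error 0.12, adjusted p = 0.00103). *Klf15*, a regulator of amino acid and lipid use in muscle, fell by 1.02 on the log2 scale. *Klf5*, linked to smooth muscle remodelling, rose by 0.92 and *Klf14* by 0.68 on the log2 scale. On total counts the split of the KLF list was 3 lower and 7 higher. Of 9 other DUSP phosphatases, none was lower, 5 were higher and 4 did not pass (median 0.23), whereas *Dusp1* was lower. On total counts 8 of the 9 were higher (median 0.50), and on log2(TPM + 1) likewise 8 (median 0.60), with none lower, while DESeq2's Wald test called 5 higher and 1 lower. *Dusp9*, which favours ERK, went from 0.609 to 2.62 CPM (log2 fold change 2.09, standard error 0.18, adjusted p = 0.000722); *Dusp2* went from 3.52 to 7.58 CPM (1.10, adjusted p = 0.00445). *Dusp10* had the highest TPM of that list and a log2 fold change of 0.15 (adjusted p = 0.155), which passed on total counts (0.42, adjusted p = 0.00342).

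Of 6 other BTG, TOB and IER genes tested, 2 were lower and 2 were higher. The antiproliferative genes *Tob2* (log2 fold change -1.07, adjusted p = 0.00294) and *Tob1* (-0.86, adjusted p = 0.0109) fell, while *Btg1* (0.65, adjusted p = 0.00189) and *Ier5l* (0.44, adjusted p = 0.00179) rose. Of 31 further immediate early genes, 16 were higher, 2 were lower and 13 did not pass (median 0.32). *Socs3*, the feedback inhibitor of STAT3, rose from 13.7 to 44.2 CPM (log2 fold change 1.69, standard error 0.18, adjusted p = 0.00102). *Npas4* rose by 1.09. The genes that fell were *Sgk1*, a kinase induced by glucocorticoids, from 205 to 95.6 CPM (-1.10, adjusted p = 0.000946), and *Cebpb* (-0.49, adjusted p = 0.00179). *Rhob*, the most abundant per length, did not pass (0.10, adjusted p = 0.333) except on other scalings such as total counts (0.37, adjusted p = 0.0159). On total counts the further immediate early genes split 1 lower and 23 higher (median 0.59), and the BTG, TOB and IER genes 2 lower and 3 higher.

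The EGR and AP-1 families were higher where they passed. The 3 EGR genes tested of 4 were all higher (median log2 fold change 0.97), with *Egr1* going from 42.7 to 83.6 CPM and *Egr3* from 5.97 to 14.6 CPM. Of 8 AP-1 genes, 4 were higher and none lower (median 0.46), *Junb* (1.26) and *Fosl1* (3.22, at 0.0622 to 0.281 CPM in WT) among them, and *Jund*, the most abundant per length, missed the threshold (0.26, adjusted p = 0.0556). The AP-1 calls depended on the scaling, with 7 of 8 higher on total counts (median 0.73), *Jund* included (0.53, adjusted p = 0.00465), and also 7 on log2(TPM + 1). The medians of both lists were above 0 on every scaling tried, and with the fibre score in the fit they were 0.83 for EGR, where 1 gene passed, and -0.13 for AP-1, where 0 of 8 passed (2 at an unadjusted p under 0.05). In that edgeR fit 0 of the other KLF, DUSP, BTG, TOB, IER and further immediate early genes passed, with 1 KLF gene, 2 DUSP genes, 1 BTG, TOB or IER gene and 9 further immediate early genes at an unadjusted p under 0.05. Genes upstream of the early response mostly did not pass: of 22 CREB, SRF, MEF2 and MAP kinase genes, 14 did not, 5 were lower and 3 higher (median -0.01). *Crem*, a cAMP-responsive factor, fell by 0.59 and *Mef2c* by 0.46, while *Mapk7*, the ERK5 kinase that drives KLF2 and KLF4 in endothelium, rose by 0.38, *Mef2a* rose by 0.22, and *Prkaca*, a catalytic subunit of PKA, stood at 0.08 (adjusted p = 0.27, or 0.0025 on total counts), all as log2 fold changes. On total counts this list split 2 lower and 13 higher, with a median of 0.27.

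**Figure D5:**
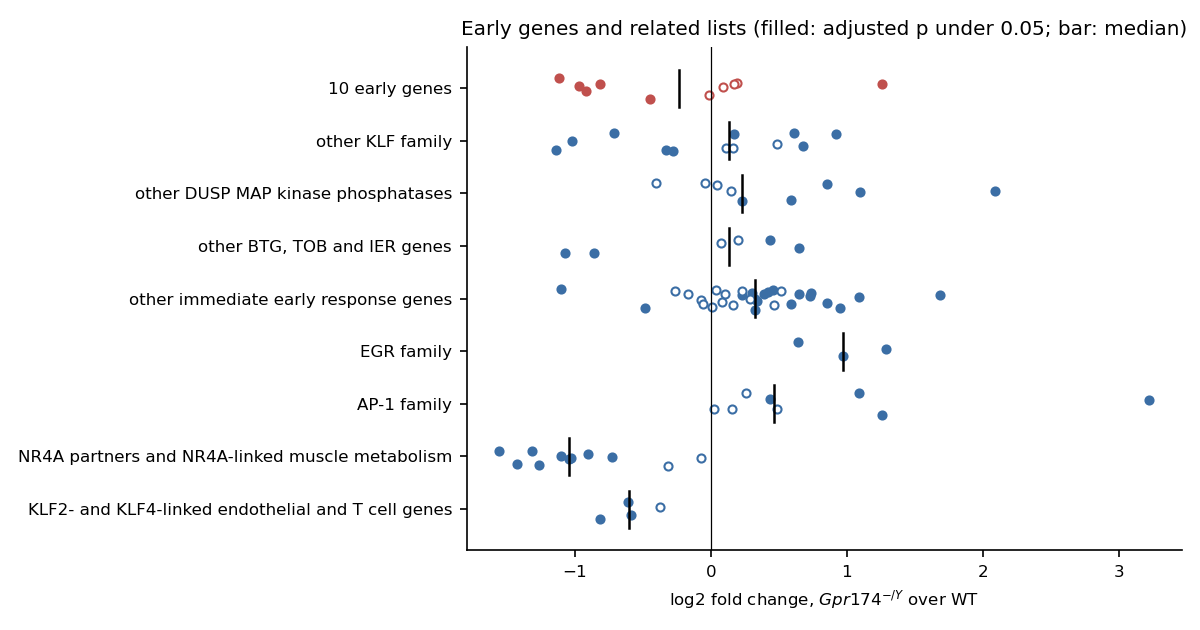
Log2 fold change (Gpr174-/Y over WT) of the early genes, in red, and of related gene lists, in blue, with 1 point per gene tested, filled where the adjusted p was under 0.05, and a bar at the median of each list. The median of the 10 early genes is -0.23, and those of the EGR and AP-1 lists are 0.97 and 0.46.

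Genes tied to the NR4A and KLF factors in earlier work were mostly lower in the *Gpr174-/Y* muscles, where 27.6% of all genes tested were lower. Of 11 NR4A partners and NR4A-linked genes of muscle metabolism, 9 were lower and none higher (median log2 fold change -1.05). Among them *Eno3* is 1 that is also counted with the mature fibre genes, whose median was -1.44. Whether the 11 genes have a tie to *Nr4a1* apart from the lower mature fibre genes was not tested. *Slc2a4*, the insulin-responsive glucose transporter, was 314, 266 and 198 CPM in WT and 92.1, 93.9 and 103 CPM in *Gpr174-/Y* muscles (-1.43, standard error 0.16, adjusted p = 0.00117). *Ucp3*, a mitochondrial carrier of muscle, was 169, 137 and 94.0 CPM in WT and 44.8, 45.4 and 45.8 CPM in *Gpr174-/Y* muscles (-1.56, adjusted p = 0.00146). On total counts 8 of the 11 were lower and 1 higher, and with mature fibre score added to the fit none was lower and 2 were higher. Of 4 genes linked to KLF2 and KLF4, 3 were lower and 1 did not pass (median -0.60). *Nos3*, the endothelial nitric oxide synthase, was 40.0, 37.6 and 37.8 CPM in WT and 23.4, 22.1 and 20.1 CPM in *Gpr174-/Y* muscles (-0.81, standard error 0.07, adjusted p = 0.0007). *S1pr1* went from 88.1 to 57.7 CPM (-0.61, adjusted p = 0.000477). The median over the endothelial marker genes was -0.73.

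The genes with the most similar profile over the 6 libraries were sought among 13635 genes by the root-mean-square difference of log2 CPM, each gene centred on its own mean. For *Klf2* the nearest were *Ndufs4* (0.0338) and *Klf4* (0.0367), and for *Klf4* they were *Calcr* (0.0342) and *Hspa12b* (0.0362), so *Klf4* was the second nearest of all genes to *Klf2*. For *Dusp1* the nearest were *Dusp19* (0.0154) and *Mrpl55* (0.0282), and for *Btg2* they were *Nenf* (0.0223) and *Mkx* (0.0229). *Nr4a1* had no neighbour as near, with *Grb14* at 0.0963 and *Fam131a* at 0.0967. This measure is not scaled to a gene's own spread, and the WT libraries of *Nr4a1* spread the most of the list. For *Ier3* they were *Trip13* (0.0413) and *Acta2* (0.0459), the smooth muscle actin, and for *Klf6* they were *Atp11b* (0.0150) and *Zfp729a* (0.0195). Nearest to *Nr4a2* were *Arid3a* and *Snapc4*, to *Nr4a3* *Mmp16* and *Sfrp4*, and to *Ier2* *Pepd* and *Jmjd6*. Likeness over 6 libraries of 2 genotypes is a description of these samples.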

How the data were processed

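RNA-seq of ischemic muscles from 3 WT and 3 *Gpr174-/Y* mice was analysed. The authors deposited expected counts, that is estimated reads per RefSeq transcript without normalization, for 58843 transcripts. The same deposited table gives FPKM, in which the authors scaled counts by transcript length and depth, and TPM. The submitters' processing notes name HISAT2 2.0.4, Bowtie2 2.2.5, RSEM 1.2.12 and GRCm39, with no role or order. The deposited group means were not used. The labels name an Illumina kit and the methods a BGISEQ instrument. The members and gene lists were chosen with earlier results of these data known.

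Expected counts were summed per Entrez gene and rounded (18089 genes, 99.7% with a symbol). Groups were compared with edgeR 4.0.16 (TMM; its default filter of low counts; quasi-likelihood F-test with robust fitting; common dispersion 0.00967, median prior degrees of freedom 2.84) in R 4.3.3 with Benjamini-Hochberg adjustment at 0.05. Standard errors are the absolute log2 fold change over the square root of F. All 10 early genes and *Gpr174* were named. From each related list, at most 5 genes were eligible to be named: the 2 that rose and the 2 that fell most among those past the threshold, and the most abundant by TPM. For each early gene, transcript models with at least 5% of its reads and the 2 nearest genes with a mean of at least 1 CPM were named. *Ergic1* was named for its overlap with *Dusp1*, and *Ly6g*, *Camp*, *Ctla4* and *Krt14* for their low counts. Promoter windows came from RefSeq and overlaps from GENCODE M21, both on GRCm38, another build than the authors'. Alternatives were DESeq2 1.42.0, by its scaling alone or with its Wald test, upper-quartile and total-count scaling, limma 3.58.1 (voom, and on log2(FPKM + 1), log2(FPKM + 0.1) and log2(TPM + 1)), other count filters, a replicate block, a mature fibre score as covariate, each library left out, and replicates 1 and 3 only. The tests were tested on simulated data.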

Additional observations from a re-analysis of the deposited data

How the results depend on the processing

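Of 190 comparisons of an early gene with an alternative, 150 kept direction and side of the threshold, 16 lost the call, 14 gained one and 10 turned sign. With mature fibre score in the fit 1 early gene passed, also past a log2 fold change of 1, and 394 of all genes passed; *Nr4a1* was then 2.01 and *Klf6* -0.16. With replicates 1 and 3 only, 0 early genes passed either rule (6 and 2 at an unadjusted p under 0.05), as did 0 of all genes (5026 unadjusted), with fewer samples in the fit. Past both thresholds was 1 early gene on log2(FPKM + 1), log2(FPKM + 0.1), log2(TPM + 1) and total counts. The count of all genes past both thresholds is not given for the alternatives. Leaving out 1 library gave 5 to 7 early genes past the adjusted p, 1 to 3 past both rules and 5457 to 9165 of all genes; it was 1 past both without *Gpr174-/Y* replicate 3 and without WT replicate 1. *Nr4a3* turned to 0.23 on log2(FPKM + 0.1), 0.18 on log2(FPKM + 1), 0.30 on log2(TPM + 1), 0.36 with the fibre score, 0.25 on total counts, 0.0085 with upper-quartile scaling, 0.19 without *Gpr174-/Y* replicate 3 and 0.016 without WT replicate 3, never past the threshold; its range with 1 library left out was -0.18 to 0.19. *Btg2* was not called on total counts, FPKM or TPM. The split of all genes was 1394 lower and 8385 higher on TPM, and 1823 and 6817 on log2(FPKM + 1). The causes were not tested. With a replicate block 6 early genes, 2 past both rules and 6812 of all genes passed; same-numbered samples deviated with correlations of 0.016, -0.028 and -0.0084, and the mice were treated as unpaired. DESeq2's Wald test called 6 of the 10 early genes and 6758 of 18034 genes. Related lists kept their number of calls within 1.5 times in 283 of 342 comparisons.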
